A study of Mus musculus with 8 samples.

Results

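The genes described here are 34 genes of glycolysis and of the cell's response to low oxygen, followed in cultured mouse eosinophils. They were chosen by name, with earlier results of these data known. They comprise the enzymes from hexokinase to lactate dehydrogenase, the kinases that steer pyruvate and fructose 2,6-bisphosphate, the oxygen sensors and known hypoxia genes. Of the 34, 31 were found in the table of 15917 genes through their Ensembl identifiers (positions below are whole genes of GENCODE M21 on mm10), and all 31 passed the filter on low counts. Ldhb, P4ha2 and Adm were not analysed here.

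Messenger RNA was sequenced from blood eosinophils of C57BL/6 mice after 18 h in culture. By the protocol the donors were IL-5 transgenic mice of line NJ.1638, while the genotype label reads WT, and all 4 groups share both descriptions. T cells and B cells were depleted with CD90 and B220 beads, and the stated purity was above 97%. There were 8 libraries, 2 per group. The first experiment compared cells without added cytokine (CN) with cells given IFN-γ and TNF-α at 15 ng/mL (E1), cytokines of type 1 immunity. In a second experiment, all cells received 10 ng/mL of IL-5, an eosinophil survival cytokine. They received it alone (E0) or with 10 ng/mL of GM-CSF and IL-4 and 30 ng/mL of IL-33, cytokines of type 2 immunity (E2). The comparisons were E1 with CN and E2 with E0. The labels do not say whether replicates came from separate animals or cultures. By the sex-linked transcripts given below, the 2 replicates of each group came from donors of different sex. The p-values measure the spread between these libraries, which includes that difference.

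Glycolysis splits glucose into pyruvate in a series of cytosolic enzyme steps, first spending ATP and then making it, and lactate dehydrogenase regenerates the NAD that the pathway consumes. The transcription factor HIF-1α is hydroxylated by the EGLN prolyl hydroxylases when oxygen is present and is then degraded. When it is stable it binds short DNA sequences near many glycolytic genes. Among granulocytes, neutrophils have few mitochondria and are known for drawing much of their ATP from glycolysis.

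Library totals ran from 60809057 to 95065752 counts. All replicate 1 libraries held Y-linked transcripts and all replicate 2 libraries held Xist, so the replicates of each group came from donors of different sex, and Pgk1 and Pdk3 lie on the X chromosome. All 12 eosinophil markers examined were in the table. Their summed level was 7651 to 7955 CPM (counts per 1000000 counts, with TMM scaling) in CN, 5987 to 6915 in E1, 6987 to 7073 in E0 and 4566 to 4624 in E2. In E2 versus E0, 8 of the 12 fell and 2 rose (edgeR adjusted p below 0.05), while 18.5% of all genes fell and 17.0% rose. Of 14 neutrophil markers 13 were in the table, with sums of 3204 to 3669 CPM in CN, 1736 to 2276 in E1, 3191 to 3993 in E0 and 1157 to 1602 in E2. Of 13 monocyte and macrophage markers 12 were in the table, with sums of 2910 to 3331 CPM in CN, 6840 to 7386 in E1, 2960 to 3240 in E0 and 3697 to 3834 in E2. A few of them set these sums: Ly6c2 averaged 99.0 CPM in CN and 3999 in E1, and Adgre1 2015 in E0 and 2824 in E2. By count, 3 rose and 3 fell in E1 versus CN, while 3 rose and 9 fell in E2 versus E0, among the latter Apoe (102 to 2.39 CPM) and Lyz2 (453 to 95.3). Of all genes, 17.3% were called in E1 versus CN and 35.5% in E2 versus E0. In any library the 3 T cell markers in the table summed to at most 4.91 CPM, the 4 NK cell markers to at most 13.7, the 5 dendritic cell markers to at most 17.1, the 4 basophil and mast cell markers to at most 11.5, the 5 B cell markers to at most 39.2 and the 5 erythroid markers to at most 39.6, with Hbb-bt at 0 in some libraries. The 2 platelet markers in the table summed to 204 to 257 CPM. In bulk samples, fewer cells of a type and less RNA per cell cannot be told apart, and the part of these shifts in the results below was not tested.

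Promoter stretches are shown because HIF-1 is known to bind near many of these genes. RefSeq windows (GRCm38.p6, 250 bases before to 50 after an annotated transcript start) were found for 30 of the 31 genes, all but Bnip3l. These genes had 43 windows, as some have several starts, and not every start is the first of its gene. ACGTG, the core that HIF-1 binds, searched on both strands, stood in a window of 22 of the 30 (73.3%), against 28.8% of 10334 genes of the table. It stood in 11 of 15 genes that rose in E2 versus E0, in 2 of 3 that fell and in 9 of 12 that were not called (73.3%, 66.7% and 75%). In the 100 bases before a start it stood in 9 of 30 (30%), against 12.97%. GCGTG, the other form of that core, stood in 63.3% against 53.7%, the E-box CACGTG, which contains ACGTG, in 16.7% against 11.5%, and the STAT core TTCNNNGAA in 6.67% against 8.52%. The members' windows held a median of 62.3% G and C and 21 CG pairs, against 60.0% and 19 in all windows, and the part of base composition in these shares was not tested. A match is a description of the letters, not a binding site. The stretches below show a match in 5 genes that rose in E2 versus E0, in 2 that fell and in 2 that were not called. Bases before the start are counted from the start of the window used. For Hif1a, Ldha and Aldoa that start and the stretch lie inside the whole-gene positions. Each is written 5′ to 3′ on the gene's strand, and none overlaps an annotated exon. The match whose position is given is in capitals (ACGTG, or CACGT where it lies on the opposite strand). The Pgk1 and Ldha stretches hold a further match left in lower case, and the Ldha and Bnip3 matches lie in an E-box.
Pgk1 (rose; chrX:106186930-106186974, + strand, match 150 bases before the start): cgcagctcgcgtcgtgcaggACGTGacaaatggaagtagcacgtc
Pgam1 (rose; chr19:41911737-41911781, + strand, 114 bases before): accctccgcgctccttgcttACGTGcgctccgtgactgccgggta
Ldha (rose; chr7:46845737-46845781, + strand, 47 bases before): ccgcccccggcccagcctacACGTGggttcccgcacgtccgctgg
Hif1a (rose; chr12:73907777-73907821, + strand, 70 bases before): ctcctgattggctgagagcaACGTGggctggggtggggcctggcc
Egln3 (rose; chr12:54204079-54204123, - strand, 229 bases before): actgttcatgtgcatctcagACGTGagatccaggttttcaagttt
Hk2 (fell; chr6:82774482-82774526, - strand, 52 bases before): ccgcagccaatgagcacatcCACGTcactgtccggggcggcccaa
Ddit4 (fell; chr10:59951933-59951977, - strand, 187 bases before): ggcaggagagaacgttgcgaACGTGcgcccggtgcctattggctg
Aldoa (not called; chr7:126799356-126799400, - strand, 126 bases before): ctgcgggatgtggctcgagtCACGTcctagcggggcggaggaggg
Bnip3 (not called; chr7:138909589-138909633, - strand, 107 bases before): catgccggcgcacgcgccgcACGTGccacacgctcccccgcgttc

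The eosinophil cultures, taken in bulk, held transcripts of every step of the pathway, and the levels per length differed widely between genes. Per kb of exon, the aldolase Aldoa stood highest in every group, at 892 CPM per kb in CN, 966 in E1, 768 in E0 and 704 in E2. The neuronal enolase Eno2 stood lowest in every group, at 0.069 to 0.153 CPM per kb. Together the 31 genes summed to 11236 and 11331 CPM in CN against 12413 and 12506 in E1. In the second experiment they summed to 7884 and 8366 CPM in E0 against 9311 and 10238 in E2. In both experiments the treated group held a larger part of its counts on these genes than its control, and the groups did not overlap. Levels in the 2 experiments also stood apart: Gapdh averaged 1045 CPM in CN and 282 in E0, and Pgk1 averaged 227 in CN and 49.4 in E0. IL-5 and the experiment cannot be told apart in those differences.

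In E1 versus CN, 5 of 31 rose and 1 fell at an adjusted p below 0.05 (edgeR quasi-likelihood test over 15913 genes), 19.4% of the members against 17.3% of all genes (9.19% rose and 8.08% fell). That share is near the background. With a term for replicate number in each experiment, which coincides with the sex of the donors, 15 rose and 2 fell, 54.8% of the members against 34.7% of all genes. The members' median log2 fold change was 0.16, against -0.01 over all genes, and 22 of the 31 values were above 0. Among the risers were the hexokinase Hk1, the glycolytic enzymes Tpi1 and Pgk1, the regulator Pfkfb3 and the cytokine Mif, and the aldolase Aldoc fell. Hk1 and Pgk1 kept their calls in all 17 alternative analyses.

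Hk1 (ENSMUSG00000037012, chr10:62268855-62379908), a hexokinase of the mitochondrial outer membrane that traps glucose in the cell by phosphorylating it, stood at 187 and 174 CPM in CN and at 324 and 286 in E1. Both treated libraries lay well above both controls, a rise of 1.69-fold (log2 fold change 0.76 ± 0.08 SE, adjusted p = 0.000267). The other hexokinases were not called: the inducible Hk2 had a log2 fold change of 0.20 ± 0.08 and the myeloid Hk3 one of 0.13 ± 0.11.

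Of the 7 genes that carry hexose phosphate to triose phosphate, 1 rose and 1 fell. Tpi1 (ENSMUSG00000023456, chr6:124810586-124814296), triose phosphate isomerase, stood at 300 and 349 CPM in CN and 413 and 467 in E1. The groups did not overlap, and the log2 fold change was 0.44 ± 0.12 (adjusted p = 0.0412). Aldoc (ENSMUSG00000017390, chr11:78322968-78327781), the minor aldolase of these cells, stood at 31.8 and 25.8 CPM in CN and 20.4 and 21.3 in E1. Both E1 libraries were below both controls, and the log2 fold change was -0.46 ± 0.11 (adjusted p = 0.0239). Of the phosphofructokinases, which catalyse the committed step, Pfkl had a log2 fold change of 0.34 (adjusted p = 0.0662), Pfkm one of 0.76 at 1.24 to 2.48 CPM (adjusted p = 0.0650), and Pfkp one of -0.05.

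Among the 6 genes from triose phosphate to pyruvate, 1 rose. Pgk1 (ENSMUSG00000062070, chrX:106187100-106203699), phosphoglycerate kinase, the first enzyme of the pathway to make ATP, stood at 222 and 233 CPM in CN and 292 and 323 in E1. The groups were clearly apart, with a log2 fold change of 0.43 ± 0.08 (adjusted p = 0.00499). Its neighbours in the pathway were not called: Gapdh had a log2 fold change of 0.19, Pgam1 one of 0.00, Eno1 one of -0.01 and Pkm one of 0.16.

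Pfkfb3 (ENSMUSG00000026773, chr2:11471433-11554077) makes fructose 2,6-bisphosphate, the activator of phosphofructokinase, and stood at 83.2 and 88.7 CPM in CN and 101 and 118 in E1. Its log2 fold change was 0.35 ± 0.08 (adjusted p = 0.0202), with no overlap between the groups. Mif (ENSMUSG00000033307, chr10:75859353-75860240), a secreted cytokine that hypoxia is known to induce, stood at 46.0 and 51.7 CPM in CN and at 74.2 and 74.0 in E1. It rose 1.52-fold, a log2 fold change of 0.60 ± 0.12 (adjusted p = 0.0100). None of the members for oxygen sensing or mitophagy, and neither pyruvate dehydrogenase kinase among them, was called in E1 versus CN. Hif1a, the closest of these, had a log2 fold change of 0.33 (adjusted p = 0.0950).

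Several E1 calls were lost when a library was left out. Leaving out a library of CN or E1 also leaves that group with donors of a single sex. Sex and treatment are then mixed, so these losses do not measure the spread between libraries alone. With the term for replicate number, which coincides with sex, Hk1, Tpi1, Pgk1, Pfkfb3, Mif and Aldoc all kept their calls. Without CN replicate 1, adjusted p rose to 0.0646 for Mif, 0.100 for Pfkfb3, 0.152 for Aldoc and 0.193 for Tpi1, and only Hk1 and Pgk1 were still called. Without E1 replicate 2, adjusted p was 0.0890 for Pfkfb3, 0.0585 for Aldoc and 0.147 for Tpi1. Aldoc and Tpi1 also lost their calls without E1 replicate 1 (adjusted p = 0.108 and 0.0537) or E2 replicate 1 (0.0512 and 0.0518). In the 4 libraries of the comparison alone, adjusted p was 0.0856 for Aldoc, 0.0620 for Tpi1 and 0.0670 for Pfkfb3. DESeq2 called Pfkl and Hif1a as well (adjusted p = 0.0259 and 0.0254), and the 4 libraries alone called Pfkl (0.0437). With library totals in place of TMM scaling, 3 members were higher (Hk1, Pgk1 and Mif) and 2 lower (Aldoc and Pfkfb4), while over all genes 1190 were higher and 1891 lower, against 1463 and 1286 with TMM.

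**Figure D1:**
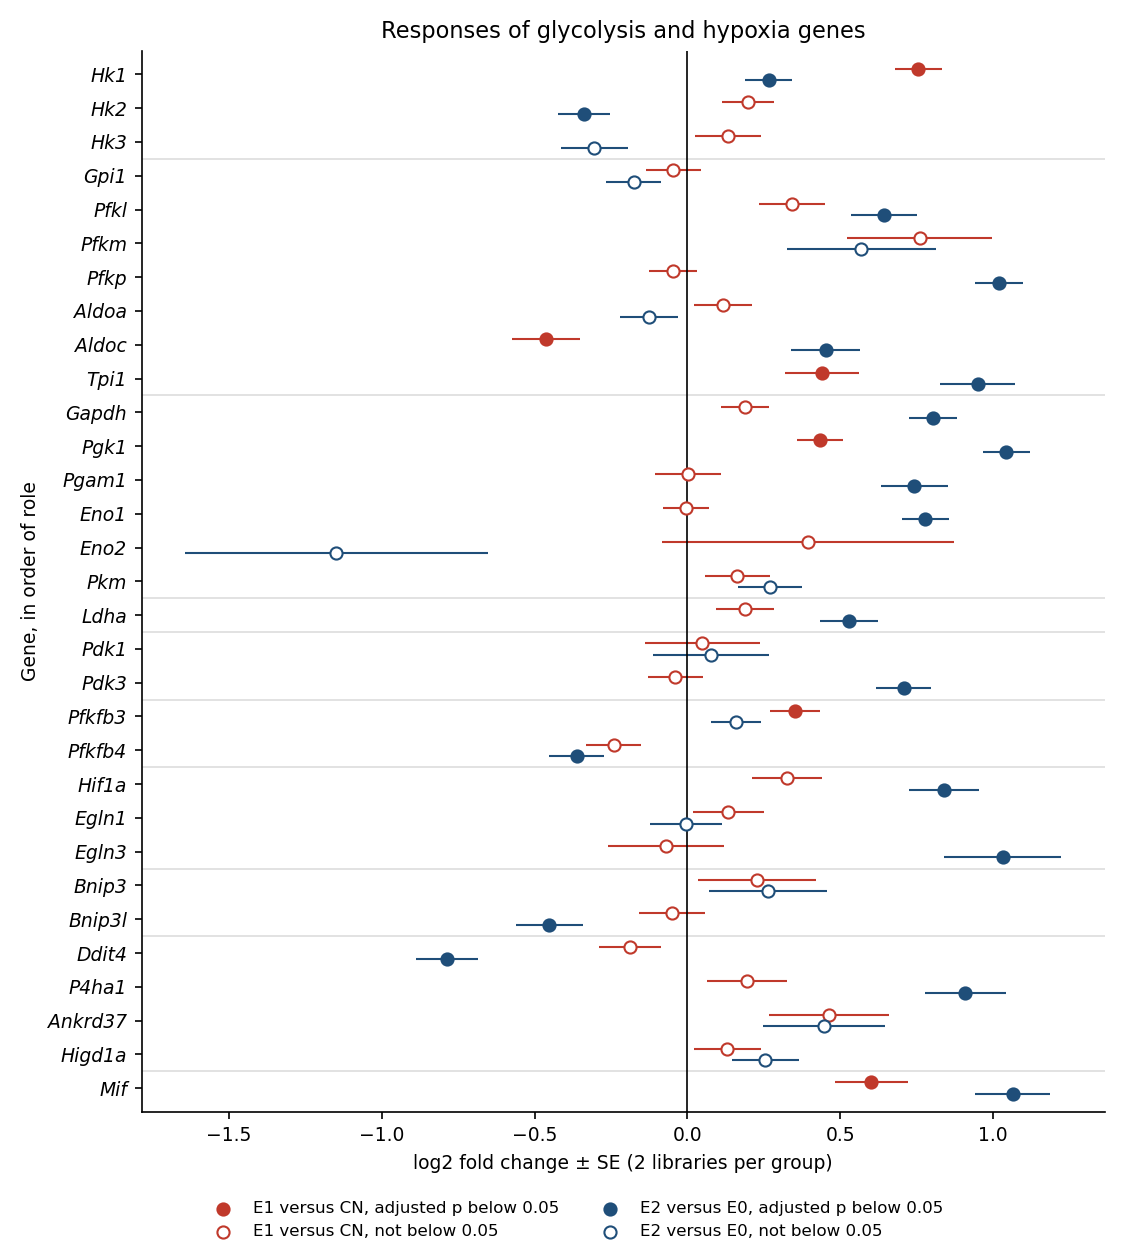
Log2 fold change ± SE of each of the 31 genes (rows, ordered from hexokinases to Mif, with lines between roles) in E1 versus CN (red) and E2 versus E0 (blue), 2 libraries per group. Filled points have an adjusted p below 0.05: 6 red points and 19 blue ones, with the blue points of Gapdh, Pgk1, Pgam1 and Eno1 between 0.74 and 1.04.

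More of the members were called in E2 versus E0 than in E1 versus CN. In E2 versus E0, 15 of 31 genes rose and 4 fell, 61.3% of the members against 35.5% of all genes. By direction, 48.4% of the members rose against 17.0% of all genes, and 12.9% fell against 18.5%. The members were chosen with earlier results of these data known, so these shares describe the list and do not test it. The members' median log2 fold change was 0.45, against -0.02 over all genes. The risers ran from phosphofructokinase through enolase to lactate dehydrogenase and included Hif1a and its hydroxylase Egln3, while Hk2, Pfkfb4, Bnip3l and Ddit4 fell. Of the 19 called genes, 14 kept their calls in all 17 alternative analyses.

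Glucose phosphorylation split by isozyme. Hk2 (ENSMUSG00000000628, chr6:82725025-82774454), whose promoter stretch is printed above, stood at 476 and 459 CPM in E0 and 369 and 371 in E2. Both E2 libraries were below both E0 libraries, with a log2 fold change of -0.34 ± 0.08 (adjusted p = 0.0158). Hk1 moved the other way, from 140 and 137 CPM to 171 and 163, a log2 fold change of 0.27 ± 0.08 (adjusted p = 0.0288). Both changes were small, and each call was lost on leaving out any 1 of the 4 libraries (adjusted p = 0.0825 to 0.149 for Hk1 and 0.0505 to 0.0940 for Hk2). Hk3 had a log2 fold change of -0.30 (adjusted p = 0.0604), with both E2 libraries below both E0 libraries, and was called by DESeq2 (0.0474) and without E0 replicate 1 (0.0117).

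Of the 7 genes of the upper steps, 4 rose and the other 3 were not called. Pfkp (ENSMUSG00000021196, chr13:6579768-6648777), the platelet-type phosphofructokinase, stood at 108 and 117 CPM in E0 and 215 and 240 in E2. It rose 2.03-fold, with a wide gap between the groups (log2 fold change 1.02 ± 0.08, adjusted p = 5.95e-05). The liver-type Pfkl rose from 73.7 ± 8.95 (SD) to 115 ± 13.9 CPM (log2 fold change 0.64 ± 0.11, adjusted p = 0.00262). Tpi1 stood at 187 and 217 CPM in E0 and 360 and 421 in E2. Its log2 fold change was 0.95 ± 0.12 (adjusted p = 0.000752), again with no overlap. Aldoc rose from 17.5 and 15.9 CPM to 22.8 and 22.9, a log2 fold change of 0.45 ± 0.11 (adjusted p = 0.0154). That call was lost without E0 replicate 2 (adjusted p = 0.0871), E2 replicate 1 (0.0706) or E2 replicate 2 (0.0705). The abundant Aldoa and the isomerase Gpi1 were not called, with log2 fold changes of -0.13 ± 0.10 and -0.18 ± 0.09.

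The enzymes from triose phosphate to phosphoenolpyruvate rose together. Gapdh (ENSMUSG00000057666, chr6:125161715-125166467), which reduces NAD as it oxidises triose phosphate, stood at 277 and 286 CPM in E0 and 481 and 503 in E2. Pgk1 stood at 47.3 and 51.4 CPM and then at 98.2 and 105. In both genes the lower E2 library was far above the higher E0 library, and the log2 fold changes were 0.80 ± 0.08 for Gapdh (adjusted p = 0.000183) and 1.04 ± 0.08 for Pgk1 (adjusted p = 4.39e-05). Pgam1 (ENSMUSG00000011752, chr19:41911923-41918660), phosphoglycerate mutase, stood at 156 and 183 CPM in E0 and 262 and 307 in E2. Eno1 (ENSMUSG00000063524, chr4:150236721-150248879), the main enolase, stood at 434 and 450 CPM in E0 and 736 and 781 in E2. They rose by similar amounts, with log2 fold changes of 0.74 ± 0.11 (adjusted p = 0.00138) and 0.78 ± 0.08 (adjusted p = 0.000176). Pkm, pyruvate kinase, averaged 1132 ± 69.9 (SD) CPM in E0 and 1365 ± 61.9 in E2 and was not called (log2 fold change 0.27 ± 0.11, adjusted p = 0.0806). It was called by DESeq2 (adjusted p = 0.0266), in the 4 libraries alone (0.0331) and with the term for replicate number (0.000489). Eno2 stayed under 1 CPM in all libraries.

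Summed levels of the upper and lower stretches of the pathway were set side by side, with no test between them. The 10 genes from hexokinase to Tpi1 summed to 4375 and 4551 CPM in E0 and to 4231 and 4598 in E2, so those groups overlapped. Aldoa and Gpi1, which were not called, made up most of that sum, at 3320 and 3451 CPM in E0 and 2936 and 3198 in E2. The other 8 summed to 1055 and 1100 CPM in E0 and to 1295 and 1400 in E2, with no overlap. That gap depends on leaving out Aldoa and Gpi1. The 6 genes from Gapdh to Pkm summed to 1998 and 2153 CPM in E0 and to 2899 and 3105 in E2, with no overlap. Pkm, also abundant and not called, was kept in that sum. Ldha, which turns pyruvate into lactate, rose from 485 ± 43.7 to 701 ± 64.3 CPM (SD, n = 2; log2 fold change 0.53 ± 0.10, adjusted p = 0.00368 by edgeR).

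**Figure D2:**
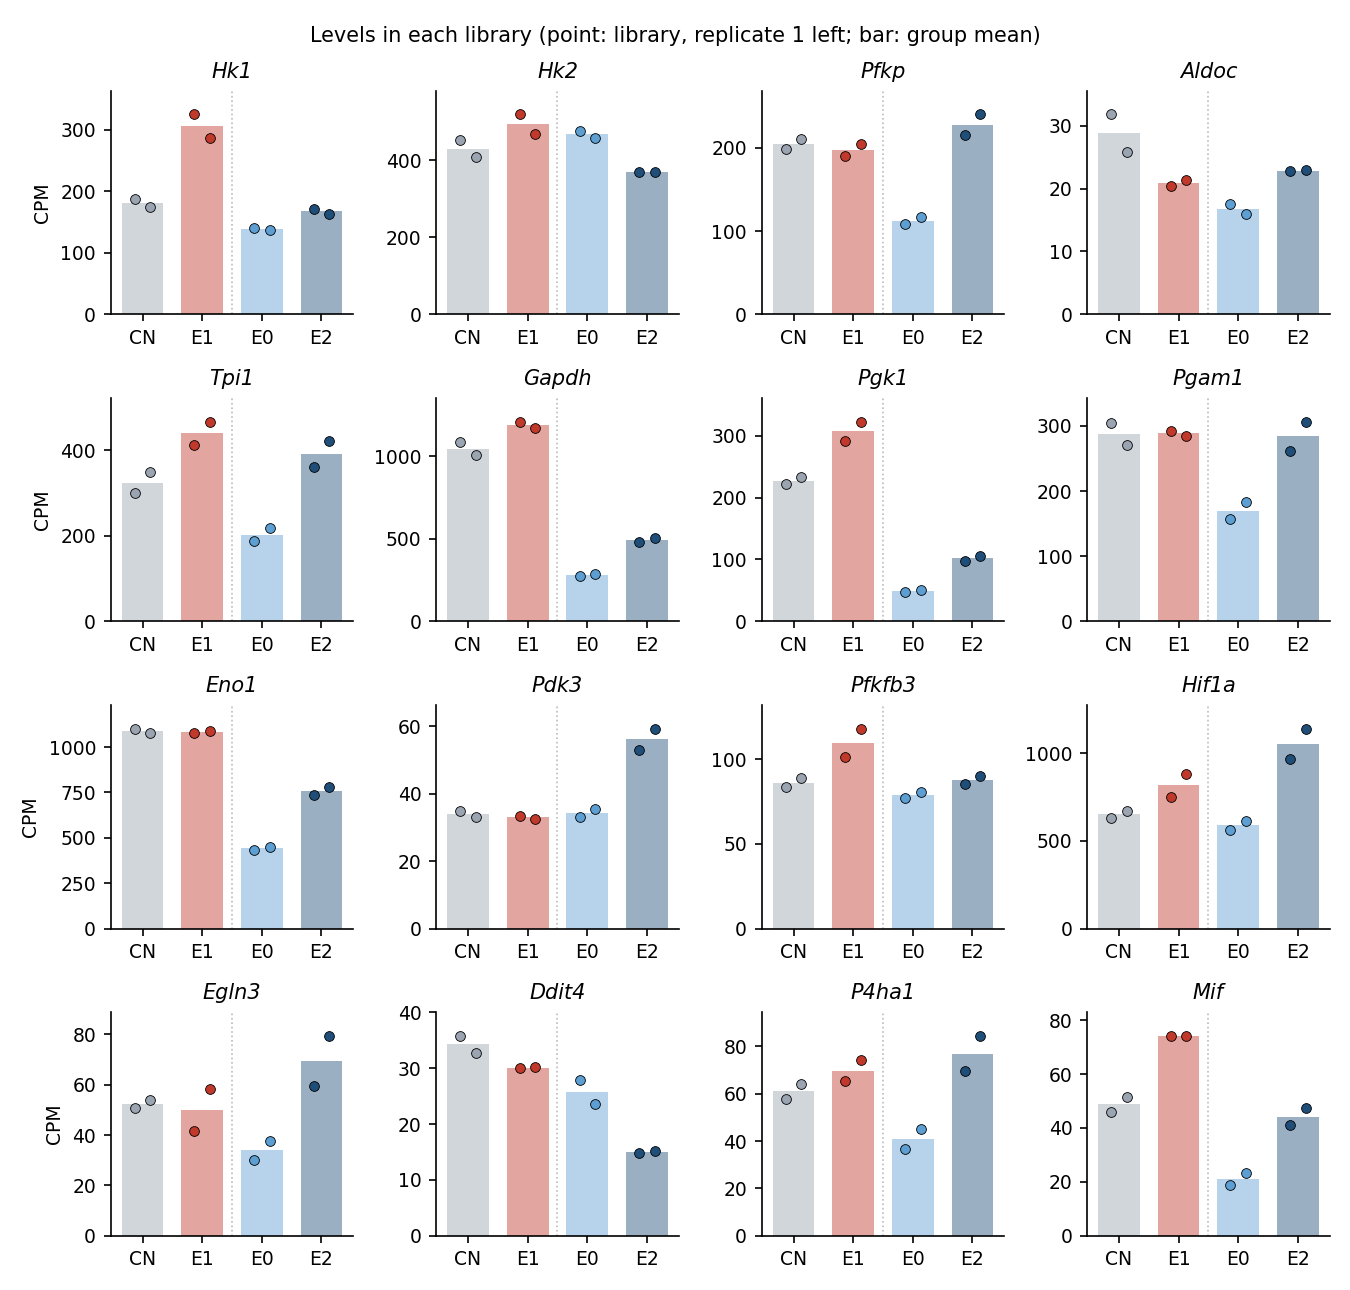
CPM (TMM scaling) of 16 genes in each of the 8 libraries (points, replicate 1 left), with the group mean as a bar and a dotted line between the 2 experiments. E2 libraries lie above E0 libraries for Gapdh, Pgk1, Pgam1, Eno1, Hif1a and Egln3, below them for Hk2 and Ddit4, and Gapdh and Pgk1 are far lower in E0 than in CN.

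Among the regulators of the pathway's ends, Pdk3 rose and Pfkfb4 fell. Pdk3 (ENSMUSG00000035232, chrX:93764607-93832201), a kinase that switches off pyruvate dehydrogenase, stood at 33.2 and 35.5 CPM in E0 and 53.0 and 59.2 in E2. All E2 values were above all E0 values, a rise of 1.63-fold (log2 fold change 0.71 ± 0.09, adjusted p = 0.000698). Its relative Pdk1, a well-known HIF target, averaged 20.2 CPM in E0 and 21.3 in E2 and was not called. Pfkfb4, the other fructose 2,6-bisphosphate enzyme of the list, fell from 67.1 ± 4.52 (SD) to 52.2 ± 1.19 CPM (log2 fold change -0.36 ± 0.09, adjusted p = 0.0154). Its call was lost without E0 replicate 2 (adjusted p = 0.0988), E2 replicate 1 (0.0862) or E2 replicate 2 (0.0687). Pfkfb3 had a log2 fold change of 0.16 (adjusted p = 0.168).

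Of the 3 oxygen-sensing genes, Hif1a and Egln3 rose and Egln1 was not called. Hif1a (ENSMUSG00000021109, chr12:73901375-73947530) stood at 562 and 613 CPM in E0 and 965 and 1139 in E2. It rose 1.79-fold, with no overlap between the groups (log2 fold change 0.84 ± 0.11, adjusted p = 0.000980). Egln3 (ENSMUSG00000035105, chr12:54178981-54203860), itself known as a HIF-induced gene, stood at 30.3 and 37.7 CPM in E0 and 59.5 and 79.5 in E2. The E2 libraries differed from each other by more than the E0 libraries did, and both lay above them (log2 fold change 1.03 ± 0.19, adjusted p = 0.00415). Egln1, the main hydroxylase of HIF-1α in most tissues, averaged 36.8 ± 1.63 CPM (SD) in E0 and 36.7 ± 4.56 in E2.

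Genes known for hypoxic induction did not move as a block. P4ha1 (ENSMUSG00000019916, chr10:59323296-59373304), a subunit of collagen prolyl 4-hydroxylase, stood at 36.7 and 45.1 CPM in E0 and 69.4 and 84.4 in E2. Ddit4 (ENSMUSG00000020108, chr10:59949669-59951834), an inhibitor of mTORC1 also known as REDD1, stood at 27.9 and 23.6 CPM in E0 and 14.8 and 15.1 in E2. P4ha1 rose 1.88-fold (log2 fold change 0.91 ± 0.13, adjusted p = 0.00129) and Ddit4 fell 1.73-fold (log2 fold change -0.79 ± 0.10, adjusted p = 0.000798), both without overlap. Of the mitophagy receptors, Bnip3l fell from 85.9 ± 0.90 (SD) to 62.8 ± 2.13 CPM (log2 fold change -0.45 ± 0.11, adjusted p = 0.0134) and Bnip3 had a log2 fold change of 0.26 ± 0.19. The Bnip3l call was lost on leaving out any 1 of the 4 libraries (adjusted p = 0.0503 to 0.0831). Ankrd37 and Higd1a, small proteins induced by hypoxia, had log2 fold changes of 0.45 and 0.25 and were not called. Mif rose from 18.9 and 23.3 CPM to 41.0 and 47.4, a rise of 2.09-fold (log2 fold change 1.06 ± 0.12, adjusted p = 0.000419).

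The responses of the 2 experiments were then set against each other by testing the difference of the log2 fold changes, E2 versus E0 minus E1 versus CN. Of the 31 genes, 13 differed (41.9%, against 25.2% of all genes): 10 were higher in this difference (against 11.3%) and 3 lower (against 14.0%). Pgk1, Tpi1, Hk1 and Mif rose in both comparisons, and Aldoc fell in the first and rose in the second. The share of all genes called in both comparisons was not analysed here. Of the lower steps, Eno1 differed by 0.78 ± 0.11 (adjusted p = 0.00122), Pgam1 by 0.74 ± 0.15 (adjusted p = 0.00940), Gapdh by 0.62 ± 0.11 (adjusted p = 0.00488) and Pgk1 by 0.61 ± 0.11 (adjusted p = 0.00437). Differences were larger for 2 genes of the upper steps: Pfkp differed by 1.07 ± 0.11 (adjusted p = 0.000321) and Aldoc by 0.92 ± 0.16 (adjusted p = 0.00411). Hk1 went the other way, with a larger rise in E1 versus CN than in E2 versus E0 (-0.49 ± 0.11, adjusted p = 0.0126). The difference of Hk2 was also negative (-0.54 ± 0.12, adjusted p = 0.0128), but Hk2 was not called in E1 versus CN and fell in E2 versus E0.

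For Pfkp, Pgam1 and Eno1, libraries of the first experiment overlapped. Pfkp stood at 198 and 211 CPM in CN and 191 and 205 in E1, Pgam1 at 305 and 271 and then 292 and 285, and Eno1 at 1101 and 1075 and then 1079 and 1088. In the second experiment the groups of the same 3 genes were apart. Pdk3 showed the same arrangement, at 34.9 and 33.0 CPM in CN and 33.5 and 32.6 in E1 (difference 0.75 ± 0.13, adjusted p = 0.00368), and so did Egln3, at 50.9 and 54.1 and then 41.8 and 58.2 (difference 1.10 ± 0.27, adjusted p = 0.0186). Gapdh stood at 1085 and 1005 CPM in CN and 1210 and 1172 in E1, above its controls but not called. Hk2 stood at 453 and 408 CPM in CN and 519 and 469 in E1, the opposite direction to its fall in E2.

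P4ha1 stood at 57.8 and 64.1 CPM in CN and 65.5 and 74.0 in E1, and its difference was 0.71 ± 0.19 (adjusted p = 0.0241). Ddit4 stood at 35.8 and 32.8 CPM in CN and 30.0 and 30.2 in E1, with a difference of -0.60 ± 0.14 (adjusted p = 0.0176). Hif1a stood at 632 and 671 CPM in CN and 752 and 881 in E1, and its difference of 0.51 ± 0.16 was at the edge of the threshold (adjusted p = 0.0498). The E1 libraries of Hif1a lay above both controls, so its groups were apart in both experiments. The differences of 7 genes (Pfkp, Aldoc, Gapdh, Pgk1, Pgam1, Eno1 and Pdk3) kept their calls in all 16 alternatives. Hk1 lost its call without E2 replicate 2 (adjusted p = 0.0592), Hk2 without E0 replicate 1 (0.0511) or E2 replicate 1 (0.0522), and Egln3 without E0 replicate 1 (0.0599) or E2 replicate 2 (0.0683). Ddit4 lost it without E0 replicate 1 (0.0655), E2 replicate 1 (0.0693) or E2 replicate 2 (0.0525), and P4ha1 without CN replicate 2 (0.0623), E1 replicate 1 (0.0658), E0 replicate 1 (0.0683) or E2 replicate 2 (0.0890). Hif1a lost it without any library but E1 replicate 2 and E2 replicate 1, with adjusted p of 0.0760 to 0.160, and with RLE scaling (0.0555) or copies added (0.0589). For Tpi1 (0.51, adjusted p = 0.0637), Mif (0.46, adjusted p = 0.0843) and Ldha (0.34, adjusted p = 0.104) a difference between the responses was not called. The Tpi1 difference was called by DESeq2 (adjusted p = 0.0211) and with library totals (0.0498), that of Mif by DESeq2 and without E0 replicate 2, and all 3 with the term for replicate number.

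**Figure D3:**
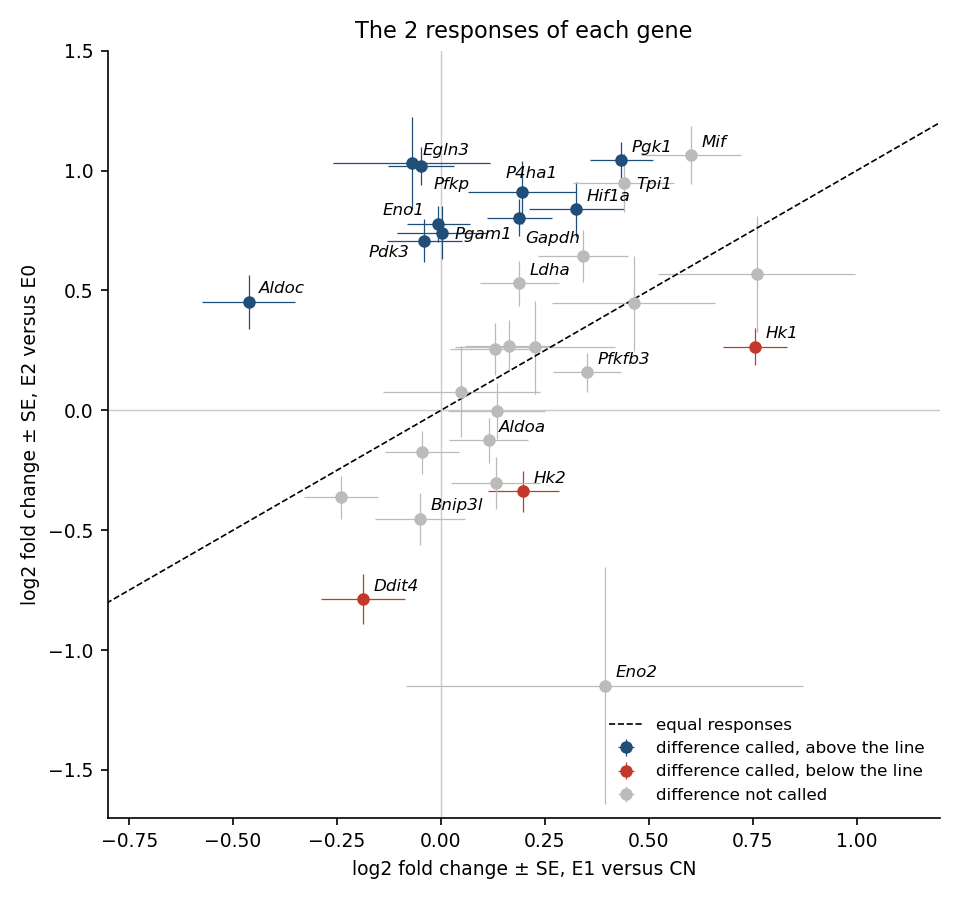
Log2 fold change ± SE in E1 versus CN (horizontal) against that in E2 versus E0 (vertical) for the 31 genes, with the dashed line of equal responses. Blue points (10 genes above the line) and red points (Hk1, Hk2 and Ddit4, below it) have an adjusted p below 0.05 for the difference of responses, and grey points do not.

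Isozyme makeup was compared within families as shares of CPM per kb of exon. Hk2 held the largest share of hexokinase transcript in every group, at 59.2% ± 1.63 (SD, n = 2) in CN, 55.3% ± 0.77 in E1, 69.8% ± 2.19 in E0 and 64.7% ± 0.31 in E2. The share of Hk1 was higher in both treated groups, at 17.4% in CN, 23.9% in E1, 14.5% in E0 and 20.4% in E2, and in neither experiment did libraries overlap. Phosphofructokinase moved in opposite ways: the share of Pfkp was 43.0% in CN and 36.4% in E1, but 42.5% in E0 and 48.9% in E2, with Pfkl holding nearly all the rest. Pfkfb3 went from 39.5% to 49.5% of its pair with Pfkfb4 in the first experiment and from 43.0% to 52.0% in the second. Egln3 held 61.2% and 57.4% of the pair with Egln1 in CN and E1, where libraries overlapped, and 55.4% and 71.7% in E0 and E2, where they did not. Aldoa was about 99% of aldolase and Eno1 over 99.7% of enolase in every library. Shares depend on the length used, and with the longest transcript as length the share of Hk1 became 27.6%, 36.3%, 23.6% and 31.9% in CN, E1, E0 and E2, and that of Hk2 51.1%, 45.6%, 61.7% and 54.8%.

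**Figure D4:**
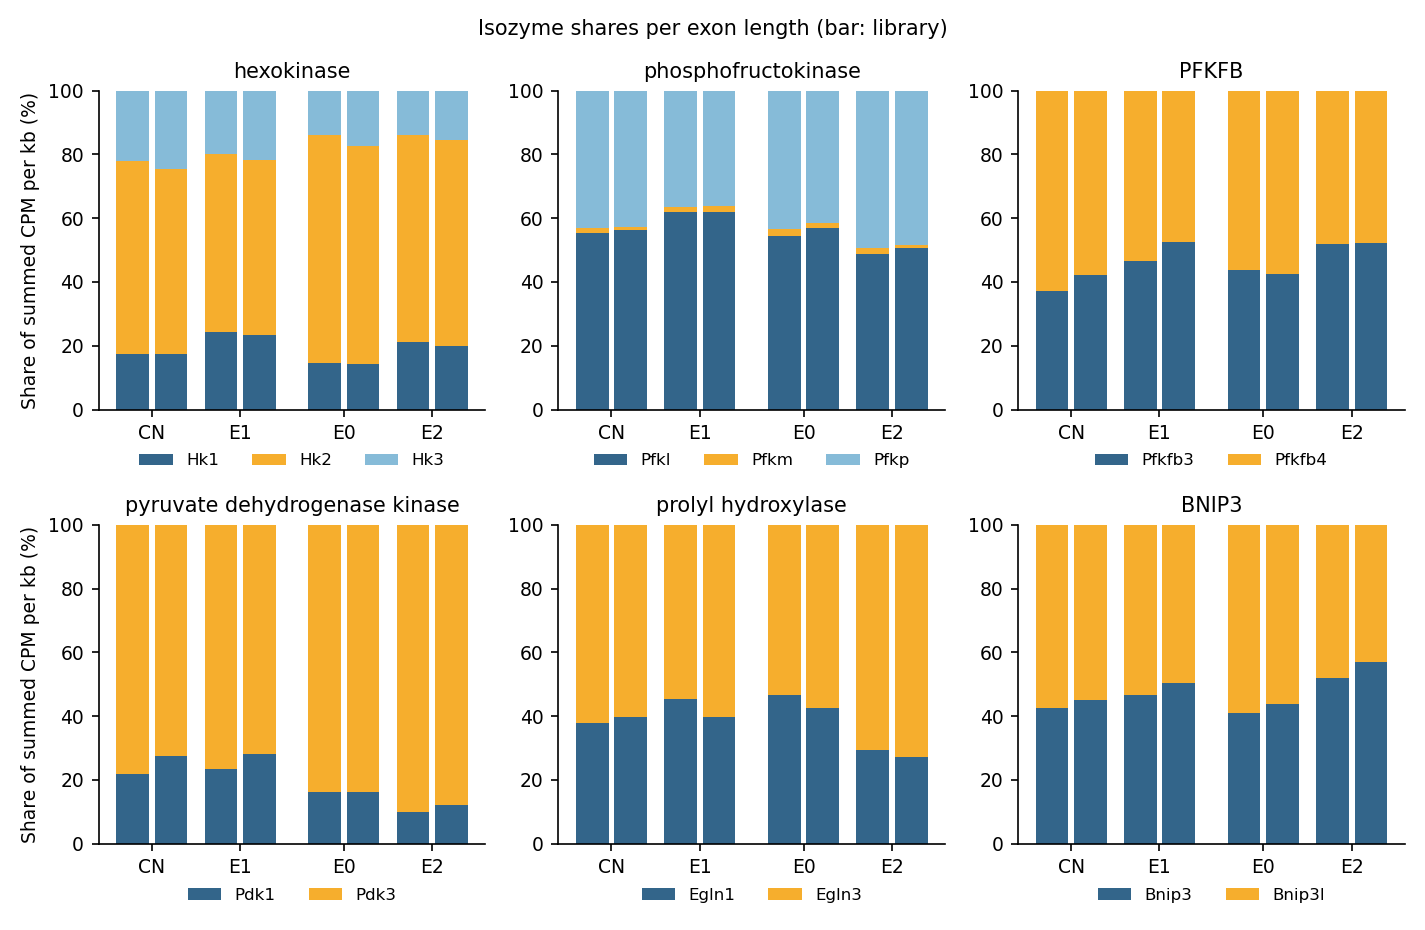
Share of each isozyme in its family's summed CPM per kb of exon (percent, stacked), 1 bar per library, in the order CN, E1, E0 and E2. The Hk1 part is larger in both treated groups, and the Pfkp part is smaller in E1 (36.4%) than in CN (43.0%) but larger in E2 (48.9%) than in E0 (42.5%).

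Several of these genes have near-identical pseudogene copies, so the reads they share are uncertain. Alignment found 440 annotated copies for 15 of the genes, all pseudogenes except Eno1b, a retrogene copy of Eno1 that is annotated as protein-coding and was added by name, of which 40, from 11 genes, were in the count table, 26 of them copies of Gapdh. The share of counts on these copies differed between the experiments. For Pgam1, the copy held 0.371% to 0.608% of the counts of gene and copy in CN and E1, and 8.86% to 11.0% in E0 and E2. For Mif these shares were 0.0965% to 0.255% and 9.90% to 12.2%, and for Eno1 0.256% to 0.551% and 4.61% to 4.94%. Within the second experiment the shares of E0 and E2 lay close together for these 3 genes, but copies of Gapdh held 8.88% and 6.32% in E0 and 3.94% and 3.29% in E2, and the copy of Ankrd37 9.48% and 7.33% against 3.12% and 5.02%. Adding the counts of copies to their genes left 15 genes higher and 4 lower in E2 versus E0 and 5 and 1 in E1 versus CN. With copies added, the log2 fold change in E2 versus E0 was 0.74 for Gapdh, 0.73 for Pgam1, 0.78 for Eno1 and 1.04 for Mif. Reads on copies not in the table were not analysed here, and the part of reads that map to several places in the lower levels of E0 and E2 was not tested.

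**Figure D5:**
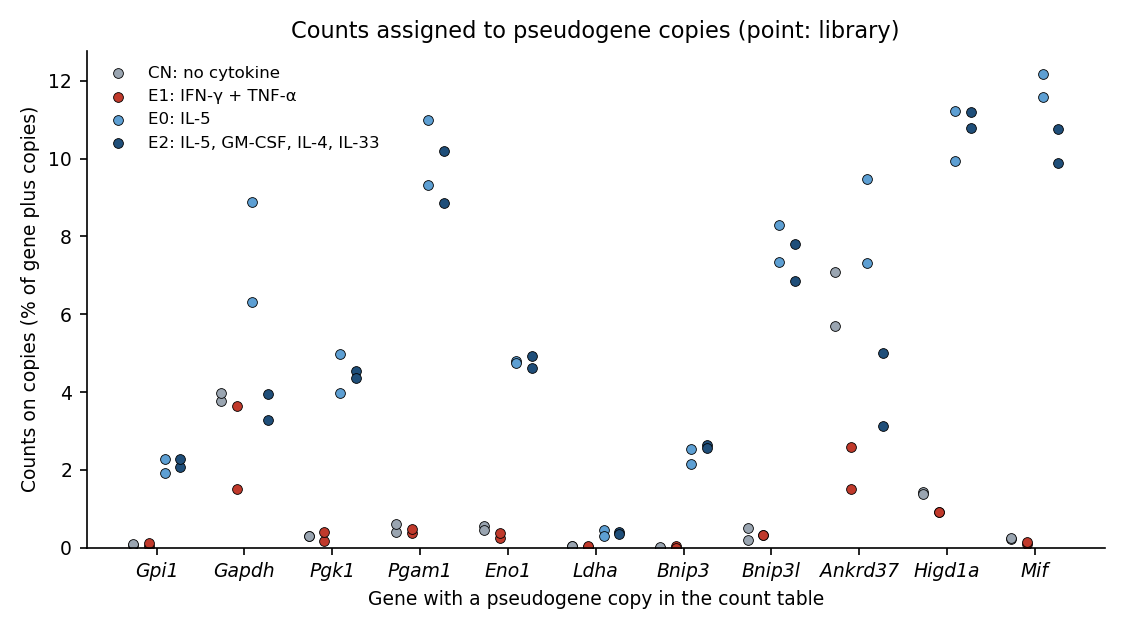
Counts assigned to annotated pseudogene copies (for Eno1 also the retrogene Eno1b), as a percent of the counts of gene plus copies, for the 11 genes with a copy in the table, 1 point per library. E0 and E2 (blue) lie above CN and E1 (grey and red) for Pgam1, Mif, Eno1, Pgk1, Bnip3l, Higd1a, Gpi1, Bnip3 and Ldha. For Gapdh E0 lies highest, and E1 replicate 1 lies lowest (1.51%, against 3.66% in E1 replicate 2).

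Genes around the pathway were read from lists chosen by function, with earlier results of these data known. Over the 9 lists, 24 of 117 genes were called in E1 versus CN (20.5%, against 17.3% of all genes) and 54 in E2 versus E0 (46.2%, against 35.5%). Of 7 genes of glucose entry and lactate exit in the table, 1 rose and 1 fell in E1 versus CN (28.6% called). In E2 versus E0, 4 rose and 1 fell (71.4% called). Slc2a6, a hexose transporter, rose in both: it stood at 60.2 and 51.4 CPM in CN and 251 and 258 in E1, and at 38.4 and 42.3 in E0 and 199 and 194 in E2. Those are log2 fold changes of 2.19 ± 0.09 and 2.28 ± 0.09 (adjusted p = 1.14e-06 and 1.93e-06), where the highest of the 31 genes were 0.76 and 1.06, and the difference of 0.09 was not called. Slc2a3, the high-affinity glucose transporter GLUT3, fell from 557 ± 36.0 (SD) to 349 ± 29.2 CPM in E1 versus CN (log2 fold change -0.67, adjusted p = 0.00108). In E2 versus E0 it rose from 322 ± 1.00 to 434 ± 22.2 CPM (0.43, adjusted p = 0.00639), a call lost without E2 replicate 1 (adjusted p = 0.0517). Slc2a1, GLUT1, had log2 fold changes of -0.04 and 0.29, the second called (adjusted p = 0.0207) but lost without E0 replicate 1 (0.144) or E2 replicate 2 (0.155). The lactate exporter Slc16a3, at 421 to 567 CPM, was not called in either comparison.

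In the branches of glucose use, genes were called in both directions. Of 8 pentose phosphate genes, 1 rose in E1 versus CN, namely G6pdx, which opens the pathway (log2 fold change 0.46 ± 0.07, adjusted p = 0.00297). The share called was 12.5%, against 17.3% of all genes, and 75% in E2 versus E0, against 35.5%. In E2 versus E0, 2 rose and 4 fell: Pgd, the second NADPH-making enzyme, fell from 774 ± 33.6 to 558 ± 23.2 CPM (-0.47, adjusted p = 0.00451), H6pd fell by 1.03 on the log2 scale (adjusted p = 0.000382) and Rpe rose (0.65, adjusted p = 0.00114). Of 15 glycogen genes, 1 rose and 4 fell in E1 versus CN, and 2 rose and 3 fell in E2 versus E0 (33.3% called in each, near the 35.5% of all genes in the second). Among them Ppp1r3b, which brings a phosphatase to glycogen, fell in the first (-0.93, adjusted p = 0.000839) and rose in the second (0.44, adjusted p = 0.0199), the second call being lost without E0 replicate 1 (0.123) or E2 replicate 2 (0.126). Of 11 genes of pyruvate entry into mitochondria, 1 rose and 1 fell in the first comparison, and 3 rose and 1 fell in the second, shares of 18.2% and 36.4% that are near those of all genes. The phosphatase gene Pdp1, which switches pyruvate dehydrogenase on, fell in E1 versus CN (-0.66, adjusted p = 0.00511). The testis-type lactate dehydrogenase Ldhc fell in E2 versus E0 from 45.0 ± 1.08 to 17.2 ± 0.60 CPM (-1.39, adjusted p = 1.93e-05), while Ldha rose. It was 1 of 5 genes that fell among 16 other enzymes of glycolysis and gluconeogenesis, of which 2 rose (43.8% called, against 35.5%).

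Regulators of HIF-1 were called about as often as other genes. Of 12 HIF regulators, 2 fell and 10 were not called in E1 versus CN, and 4 rose and 8 were not called in E2 versus E0, shares of 16.7% and 33.3% against 17.3% and 35.5% of all genes. Cited2, a HIF-induced protein that competes with HIF-1α for its coactivators, stood at 158 and 152 CPM in CN and 91.0 and 86.2 in E1, then at 102 and 103 in E0 and 208 and 211 in E2. It fell in the first (-0.81 ± 0.06, adjusted p = 2.8e-05) and rose in the second (1.04 ± 0.06, adjusted p = 1e-05). Cul2, a scaffold of the ligase that degrades HIF-1α, rose in E2 versus E0 (0.59, adjusted p = 0.00183). Of 23 other hypoxia-induced genes, 3 rose and 2 fell in E1 versus CN, and 8 rose and 4 fell in E2 versus E0 (21.7% and 52.2% called). Nampt, which makes a precursor of NAD, rose in both (2.89, adjusted p = 1.43e-06, and 0.68, adjusted p = 0.00248). Bhlhe40, a transcription factor, fell in the first (-0.67, adjusted p = 0.000880) and rose in the second (0.42, adjusted p = 0.00616, lost without E0 replicate 1 at 0.0574), and Hmox1, heme oxygenase, fell in the second (-1.54, adjusted p = 0.000382). Vegfa had a log2 fold change of 1.07 in E2 versus E0 (adjusted p = 0.0395), lost without E0 replicate 1 (0.200), E2 replicate 1 (0.0797) or E2 replicate 2 (0.179) and with limma-voom on all libraries (0.0648).

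The list of mTORC1 and its inhibitors, to which Ddit4 is linked by function, held 16 genes, of which 2 fell and 14 were not called in E1 versus CN and 1 rose and 4 fell in E2 versus E0 (12.5% and 31.2% called, below the shares of all genes). Sesn1, another inhibitor of mTORC1, fell in E2 versus E0 (-0.50, adjusted p = 0.00487). Of 9 transcription factors of glycolytic genes, 1 rose and 8 were not called in the first comparison, and 3 rose and 3 fell in the second. The shares called were 11.1% and 66.7%, against 17.3% and 35.5% of all genes. Usf1, which binds E-boxes, rose from 70.1 and 80.3 CPM to 201 and 183 in E1 versus CN (1.35, adjusted p = 1.97e-05) and fell from 61.2 and 61.8 to 39.0 and 42.8 in E2 versus E0 (-0.59, adjusted p = 0.00136). Klf2 rose in E2 versus E0 (0.92, adjusted p = 0.00111).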

How the data were processed

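Stranded mRNA libraries were analysed from the raw counts per gene that the authors deposited, unnormalized. STAR, featureCounts and the mm10 build are named in the submitters' processing notes. Not given in the sources used here are tool versions, the annotation, the strand setting and the handling of reads that map to several places. The table held 1 row with no gene name that equalled the totals (100% of gene counts), which was left out. Symbols and positions are from GENCODE M21 (15730 of 15917 identifiers matched).

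The test was edgeR 4.0.16 (R 4.3.3) with filterByExpr (4 genes removed), TMM scaling, a mean for each group fitted to the 8 libraries together (4 residual df) and the two-sided quasi-likelihood F test. The threshold was 0.05 for p adjusted by Benjamini-Hochberg over 15913 genes. The steps were tested on simulated data. CPM are TMM-scaled, and a count of 0 allows up to 3 counts, 0.0316 to 0.0493 CPM, by counting error only. Alternatives were RLE scaling, library totals, no filter, DESeq2 1.42.0, limma-voom (limma 3.58.1), the 4 libraries of a comparison alone, a replicate block, leaving out each library, and copies added to their genes by symbol or, chosen after seeing the data, by alignment (minimap2 2.31-r1302, at least 80% identity over at least 50% of the copy's transcript).

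The members and lists were chosen with earlier results of these data known. Values in every library are given for genes called in E1 versus CN, in the difference of responses, or in E2 versus E0 with a log2 fold change of at least 1 in size. List genes were named by size of change, up to 3 called genes each way per list and comparison among those at 10 CPM or more in their higher group, and some are given in 1 comparison only. Slc16a3 and a second comparison for other list genes were added after their values were seen. Promoter windows and their transcript starts are from RefSeq (GRCm38.p6), and the last 30 bases of 38 of 43 windows were found in a GENCODE transcript of the gene.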

Additional observations from a re-analysis of the deposited data

Results flagged for a closer look

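The 2 responses differed, by the test of the difference itself (E2 versus E0 minus E1 versus CN, edgeR, adjusted p below 0.05), in 13 of the 31 genes. The difference on the log2 scale was 1.07 for Pfkp, 0.92 for Aldoc, 0.62 for Gapdh, 0.61 for Pgk1, 0.74 for Pgam1 and 0.78 for Eno1 among the enzymes after glucose phosphorylation. It was 0.75 for Pdk3, 0.51 for Hif1a, 1.10 for Egln3 and 0.71 for P4ha1. Negative differences were found for Hk1 (-0.49), Hk2 (-0.54) and Ddit4 (-0.60). The libraries without which single calls were lost are given with the comparison above.

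Of 117 genes in the lists around the pathway, 26 differed (22.2%, below the 25.2% of all genes). The naming rule took 21 of them, and 8 kept that call in all 16 alternatives. Their differences were 1.85 for Cited2, 1.36 for Ppp1r3b, 1.11 for Slc2a3, 1.09 for Bhlhe40, -1.94 for Usf1, -1.003 for Ldhc, -2.04 for Hmox1 and -2.21 for Nampt. Nampt rose in both comparisons, Ldhc fell in both, and Cited2, Ppp1r3b, Slc2a3 and Bhlhe40 fell in E1 versus CN and rose in E2 versus E0. Usf1 was called in the opposite directions. Ldhc lost its E1 versus CN call without CN replicate 1 (adjusted p = 0.0898) or E1 replicate 2 (0.0676) and in the 4 libraries alone (0.0673). The groups came from separate experiments, and experiment and cytokine set cannot be told apart.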

How the results depend on the processing

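Directions held for all called genes under every alternative run. Signs turned in 39 of 3098 recomputed values, for 13 genes in comparisons where they were not called (at most 0.23 in size in the test reported). In E1 versus CN, Eno1 turned to 0.0039 with RLE scaling or DESeq2, 0.0087 in the 4 libraries alone and 0.0054 with copies added by alignment, an alternative chosen after seeing the data. With library totals Pgam1 turned to -0.090 and Pdk1 to -0.041. On leaving out single libraries, values ran from -0.12 to 0.050 (Gpi1), -0.10 to 0.0020 (Pfkp), -0.081 to 0.10 (Pgam1), -0.023 to 0.026 (Eno1), -0.13 to 0.23 (Pdk1), -0.080 to 0.017 (Pdk3), -0.33 to 0.15 (Egln3), -0.0024 to 0.47 (Bnip3) and -0.18 to 0.11 (Bnip3l). In E2 versus E0, Egln1 turned to 0.0020 (RLE), 0.0017 (DESeq2) and 0.0042 (4 libraries), and on leaving out libraries it ran from -0.14 to 0.12, and Pdk1 from -0.19 to 0.31. In the difference, Pdk1 turned to -0.0024 with limma-voom and Ankrd37 to 0.057 with library totals, and on leaving out libraries values ran from -0.47 to 0.043 (Pfkm), -0.012 to 0.20 (Pkm), -0.24 to 0.26 (Pdk1), -0.20 to 0.27 (Bnip3) and -0.33 to 0.24 (Ankrd37).

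In E1 versus CN, members called higher were 3 with library totals and 2 to 5 on leaving out libraries, against 5 in the test reported. Members called lower were 2 with library totals, 0 in the 4 libraries alone and 0 to 1 on leaving out libraries. In E2 versus E0, members called lower were 1 to 4 on leaving out libraries and the percent of all genes called was 20.9 to 37.3. In the difference, members called lower were 1 to 4 on leaving out libraries. With 2 libraries per group, a group with 1 library left out is assumed to vary like the others. Its remaining library is of 1 sex, so sex and treatment are mixed in the comparisons of that group. Lengths other than the exon union moved 50 of 72 isozyme shares, and the shorter promoter window moved all 4 motif shares.

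Replicate numbers are shared by the groups of an experiment, but the labels do not say that they mark a shared animal or day. Deviations of same-numbered libraries correlated at 0.50 (CN and E1) and 0.59 (E0 and E2). With replicate number as a block, members called were 15 higher and 2 lower in E1 versus CN, 20 higher and 7 lower in E2 versus E0 and 14 higher and 6 lower in the difference, and the percent of all genes called was 34.7, 53.5 and 42.9.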
